A study of Mus musculus with 24 samples.

Results

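A group of 7 genes of cholesterol synthesis was followed through mouse livers that lacked *E2f7* and *E2f8* or kept them, before and after an overdose of acetaminophen (APAP). Its members are *Hmgcs1*, *Idi1*, *Fdps*, *Sqle*, *Lss* and *Cyp51*, which encode enzymes, and *Insig1*, which encodes a regulator of the pathway. The genes were picked by symbol, and 7 of 7 were found among 24411 genes counted and passed the filter on low counts in each comparison. Whole-liver RNA was sequenced from male mice, 2.5 months old and fasted for about 16 h. LKO mice carried floxed *E2f7* and *E2f8*, the R26R mTmG reporter and Alb-Cre, which acts in liver throughout life, on a mixed background that is mostly FVB. Their control littermates carried no Cre. HKO mice were floxed animals injected at 2 months of age with AAV8-TBG-Cre, a virus that expresses Cre from a hepatocyte promoter, and their controls received AAV8-TBG-Null. The mTmG reporter was examined in HKO mice and their controls as well. At 0 h, fasted mice without APAP were sequenced singly (4 LKO, 4 control, 3 HKO and 3 AAV8-TBG-Null). At 12, 24, 48, 72 and 96 h after 300 mg/kg APAP, RNA of 3 mice was pooled into 1 LKO and 1 control library per time point, which leaves 10 pools and no replicate of any pool. Whether food was returned after APAP, and the hour of day at collection, are not given in the sources used here.

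Cholesterol is built from acetyl-CoA through mevalonate, isoprenoid units, squalene and lanosterol. The transcription factor SREBP-2, encoded by *Srebf2*, is held in the endoplasmic reticulum together with its escort SCAP by INSIG proteins while sterols are plentiful. When sterols fall, it is released, cleaved in the Golgi and activates genes of the whole pathway, *Insig1* included. Liver is a main site of this synthesis, which is low in fasting and rises with feeding. In the order of the pathway, HMGCS1 makes HMG-CoA, IDI1 interconverts the isoprenoid building blocks, and FDPS joins them into farnesyl diphosphate. SQLE then oxidizes squalene, LSS closes the ring to lanosterol, and CYP51 removes a methyl group from lanosterol.

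Promoters are shown for 3 of these genes, as examples of 2 enzymes and of the regulator *Insig1*. RefSeq windows (GRCm38.p6, from 250 bases before to 50 bases after the start site) were held for 5 of the 7 genes, and *Sqle* and *Fdps* had no entry. Capitals mark CCAAT, searched on both strands (ATTGG on the other), and TCACNCCAC, a sterol-response-like motif in which N is any base, with at most 1 mismatch. *Hmgcs1* lies at chr13:119690101-119690400 (plus strand), *Cyp51* at chr5:4104648-4104947 (minus strand) and *Insig1* at chr5:28071162-28071461 (plus strand).
Hmgcs1: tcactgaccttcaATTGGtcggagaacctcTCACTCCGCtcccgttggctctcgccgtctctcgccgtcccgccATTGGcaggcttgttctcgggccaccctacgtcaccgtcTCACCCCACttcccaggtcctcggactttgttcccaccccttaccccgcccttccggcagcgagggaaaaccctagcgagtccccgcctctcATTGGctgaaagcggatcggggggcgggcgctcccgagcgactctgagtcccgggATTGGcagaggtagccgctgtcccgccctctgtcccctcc
Cyp51: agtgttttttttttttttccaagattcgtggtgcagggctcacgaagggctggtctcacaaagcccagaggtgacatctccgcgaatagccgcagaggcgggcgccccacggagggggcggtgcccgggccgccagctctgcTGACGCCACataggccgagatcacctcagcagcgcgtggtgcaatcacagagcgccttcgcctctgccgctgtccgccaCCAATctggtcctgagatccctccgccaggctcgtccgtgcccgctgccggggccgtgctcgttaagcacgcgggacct
Insig1: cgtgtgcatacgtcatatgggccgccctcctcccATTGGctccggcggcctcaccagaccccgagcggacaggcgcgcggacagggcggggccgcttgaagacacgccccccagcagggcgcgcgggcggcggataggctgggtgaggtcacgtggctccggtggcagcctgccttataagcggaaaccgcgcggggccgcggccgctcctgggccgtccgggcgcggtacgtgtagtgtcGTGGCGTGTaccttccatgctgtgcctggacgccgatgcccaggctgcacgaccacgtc
The motif TCACNCCAC matched exactly in *Hmgcs1* alone, from base -137 to -129 before the start site, as it did in 1.24% of 32851 promoters. With 1 mismatch it was found in *Hmgcs1* (-220 to -212), *Cyp51* (-108 to -100) and *Insig1* (-9 to -1), that is in 3 of 5 windows against 24.2% of all promoters, and in neither *Idi1* nor *Lss*. CCAAT was present in 5 of 5 windows (37.4% of all promoters), and *Hmgcs1* held 4 copies. GGGCGG or its complement was also in 5 of 5 (35.7%), and CACGTG in *Insig1* alone (7.15%). These matches describe letters and are not measured binding sites.

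Reads on genes ranged from 12665686 to 19499897 per library, and 3 counts corresponded to 0.154 to 0.237 CPM (counts scaled to a common library size by TMM). The lowest count of any of the 7 genes was 33, for *Sqle* in an AAV8-TBG-Null control, so each was well above that level. Counting disregarded strand and *Hmgcs1*, *Idi1*, *Lss*, *Cyp51* and *Fdps* overlap other annotated genes, which adds uncertainty to their counts. Whole-gene *E2f8* counts were higher in livers labelled HKO (30.6 to 83.4 CPM) than in their controls (14.8 to 26.3 CPM), and in LKO than in control pools (log2 fold change over 12 to 96 h 1.53, edgeR adjusted p = 0.0237; 0.63 at 0 h, not called). The count covers the whole gene, so it does not check the labels. Hepatocyte markers, 8 of 8 detected in each library, summed to 51338 to 136878 CPM. LKO replicate 2 at 0 h had the lowest value of its group in 6 of the 7 genes. In bulk liver, fewer cells of a type and less RNA per cell cannot be told apart.

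The 6 enzymes rose by 24 h after APAP, and the control and LKO pools each lay above all 4 mice of their genotype at 0 h. Over 14421 genes, both pools lay above these mice for 22.7% at 24 h, 16.6% at 48 h and 18.5% at 72 h, against 6 of the 7 genes at each of these times. The change from 0 h was tested in the 18 libraries of the LKO cohort, with genotype as an added term, by edgeR's quasi-likelihood test with Benjamini-Hochberg adjustment over 13855 genes. Calls needed an adjusted p under 0.05 and a change of 1.5-fold or more. Each time point was set against the same 8 mice at 0 h, so the time points share these mice. With 1 pool per genotype and time, the fit counts a genotype difference that varies with time as spread. At 24 h the 6 enzymes were called higher, against 13.9% of all genes tested, and *Insig1* was not. At 72 h the same 6 enzymes were called higher (11.0% of all genes), at 48 h *Sqle*, *Idi1* and *Cyp51* (9.89%), and at 96 h *Sqle*, *Fdps* and *Hmgcs1* (0.332%). At 12 h no enzyme was called, and *Insig1* was called lower, against 14.3% of all genes. The calls at 24 and 72 h were 6 without any one of the 8 mice at 0 h. At 48 h, without control replicate 1 only *Sqle* was called, and at 96 h, without control replicate 2 or LKO replicate 3 only *Fdps* was called. Leaving out mice gave 1 to 4 calls at 48 h and 1 to 3 at 96 h, and the other settings gave 3 to 6 and 2 to 6.

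**Figure D1:**
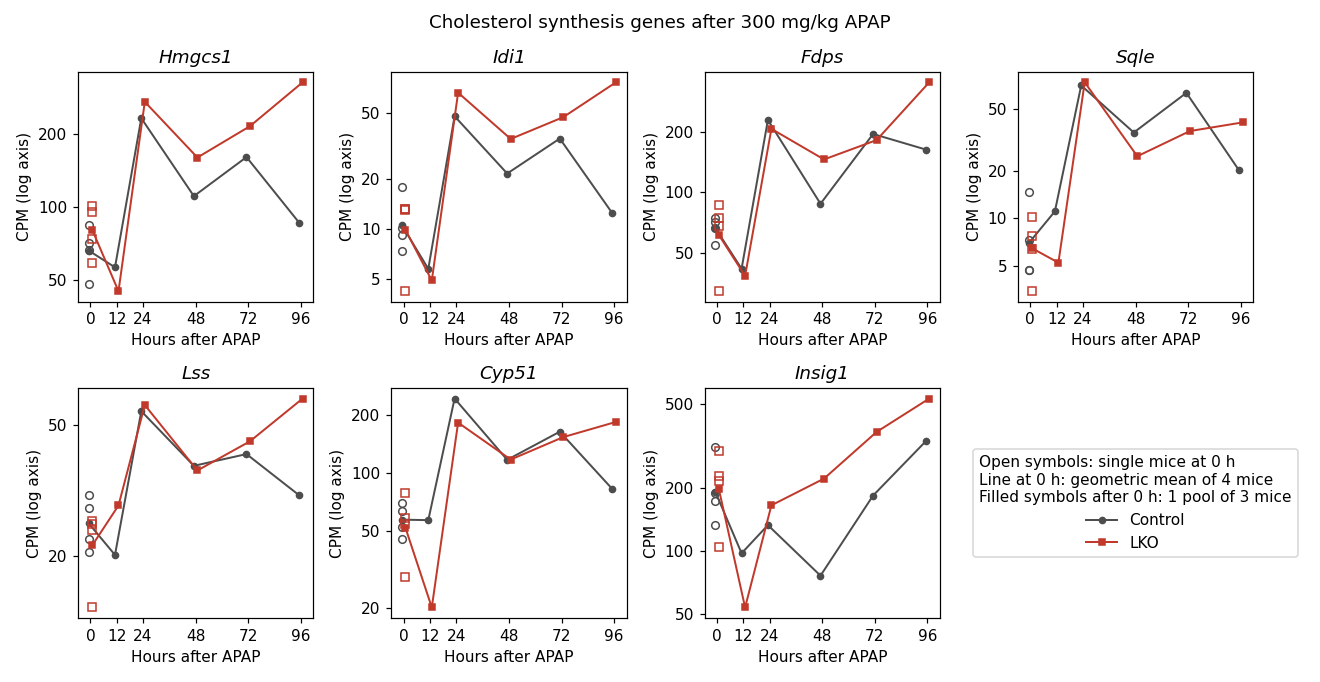
CPM (log axis) of the 7 genes against hours after APAP in control (grey circles) and LKO (red squares) livers, with single mice at 0 h as open symbols, the geometric mean of the 4 mice as the filled symbol at 0 h, and 1 pool of 3 mice at each later point. The 6 enzymes were above every 0 h mouse of their genotype at 24, 48 and 72 h in both genotypes, and at 96 h the LKO pool was higher than the control pool for each of the 7 genes.

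*Sqle*, a rate-controlling oxygenase of the later pathway, showed the largest changes of the 7 genes at 24, 48, 72 and 96 h when averaged over genotype. In control mice at 0 h it was at 4.66, 4.65, 14.7 and 7.26 CPM, and the control pools were at 11.1, 70.9, 35.4, 63.5 and 20.3 CPM at 12, 24, 48, 72 and 96 h. In LKO mice at 0 h it was at 10.3, 3.43, 6.40 and 7.70 CPM, and the LKO pools were at 5.22, 74.2, 25.0, 36.2 and 41.1 CPM. Pools of both genotypes from 24 h on lay above all 0 h mice of the cohort. The log2 fold change was 3.30 ± 0.36 (SE, edgeR adjusted p = 1.91e-05) at 24 h, 2.02 ± 0.38 (adjusted p = 0.00179) at 48 h, 2.73 ± 0.37 (adjusted p = 5.33e-05) at 72 h and 2.09 ± 0.38 (adjusted p = 0.0287) at 96 h. Thus *Sqle* was 9.86-fold above 0 h at 24 h, when averaged over genotype, the highest fold of the 7 genes at any time.

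*Idi1* had the same 2 peaks in control livers. At 0 h the control mice were at 9.21, 10.2, 17.8 and 7.45 CPM, and the control pools at 5.78, 47.8, 21.6, 35.1 and 12.5 CPM from 12 to 96 h. The LKO mice at 0 h were at 13.0, 4.25, 13.2 and 13.2 CPM, and the LKO pools at 4.93, 66.2, 34.9, 47.2 and 76.4 CPM. By 96 h the control pool was back within the range of its 0 h mice, while the LKO pool reached the highest value of all 24 libraries. The log2 fold change was 2.33 ± 0.40 (adjusted p = 0.000661) at 24 h, 1.31 ± 0.43 (adjusted p = 0.0429) at 48 h and 1.87 ± 0.41 (adjusted p = 0.00479) at 72 h, by edgeR. The call at 48 h was kept in 10 of 16 alternative settings. At 96 h it was 1.84 ± 0.43 and was not called (edgeR adjusted p = 0.0641), with the pools at 1.18-fold and 7.61-fold of their own 0 h means in control and LKO.

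*Hmgcs1*, which commits acetyl units to the pathway in the cytosol, was at 71.0, 48.3, 66.6 and 84.3 CPM in control mice at 0 h and at 59.1, 73.9, 95.8 and 101 CPM in LKO mice. The control pools were at 56.5, 232, 111, 160.4 and 86.3 CPM from 12 to 96 h. The LKO pools were at 45.1, 271, 159.7, 215 and 325 CPM. At 12 h the LKO pool lay below its 4 mice at 0 h and the control pool lay within the range of its own. The log2 fold change was 1.74 ± 0.27 (edgeR adjusted p = 0.000314) at 24 h, 1.31 ± 0.28 (adjusted p = 0.00327) at 72 h and 1.33 ± 0.28 (adjusted p = 0.0468) at 96 h. At 48 h it was 0.83 ± 0.28 (edgeR adjusted p = 0.0519). The call at 96 h was kept in 6 of 16 alternative settings, with an adjusted p of up to 0.0722.

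*Fdps*, whose product feeds both sterols and protein prenylation, was at 66.4, 74.1, 71.2 and 54.8 CPM in control mice and at 74.5, 32.1, 67.8 and 86.6 CPM in LKO mice at 0 h. Control pools were at 41.5, 229, 87.6, 195 and 163 CPM, and LKO pools at 38.2, 207, 146, 182 and 353 CPM, from 12 to 96 h. In the control pool at 96 h *Fdps* was still 2.46-fold above its 0 h mean and *Sqle* 2.89-fold, while the other 4 enzymes were at 1.18-fold to 1.44-fold. It was called higher at 96 h (log2 fold change 1.92 ± 0.26, edgeR adjusted p = 0.00361) in the fit and in each of 16 alternative settings. At 24 h the log2 fold change was 1.72 ± 0.26 (edgeR adjusted p = 0.000294) and at 72 h 1.51 ± 0.27 (adjusted p = 0.00075).

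*Cyp51* and *Lss*, which act on either side of lanosterol, both rose at 24 and 72 h. *Cyp51* was at 45.8 to 70.2 CPM in control mice and 29.1 to 78.8 CPM in LKO mice at 0 h, and at 57.0, 243, 117, 163 and 82.5 CPM in the control pools. The LKO pools were at 20.2, 182, 117, 153 and 184 CPM, and the 12 h value was the lowest of the 24 libraries. *Cyp51* rose at 24 h (log2 fold change 1.89 ± 0.31, edgeR adjusted p = 0.000489), 48 h (1.04 ± 0.33, adjusted p = 0.0362) and 72 h (1.48 ± 0.32, adjusted p = 0.00401). *Lss* changed least of the 6 enzymes at 24 h, from 20.7 to 30.7 CPM in control mice and 14.0 to 25.7 CPM in LKO mice at 0 h to 55.2 and 57.6 CPM in the control and LKO pools. Its log2 fold change was 1.23 ± 0.23 (edgeR adjusted p = 0.001) at 24 h and 0.83 ± 0.23 (adjusted p = 0.0193) at 72 h. At 48 h it was 0.63 ± 0.24 and was not called (edgeR adjusted p = 0.0731). At 96 h the pools were at 30.7 CPM in control and 60.3 CPM in LKO, and the averaged change was not called (edgeR adjusted p = 0.0926).

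*Insig1*, the sterol-sensing brake on SREBP-2 and itself an SREBP target, was not called higher at any time. At 0 h it was at 312, 187, 132 and 173 CPM in control mice and at 214, 105, 299 and 226 CPM in LKO mice. The control pools were at 97.4, 133, 76.2, 183 and 331 CPM, and the LKO pools at 53.8, 165, 220.4, 367 and 529 CPM, from 12 to 96 h. Thus at 12 h both pools were below all 0 h mice of their genotype, and at 24 h, when each enzyme was at its highest in the control pools, both lay within the range of these mice. At 48 h the control pool lay below them and the LKO pool within. At 72 h the LKO pool lay above them and the control pool within, and at 96 h both pools lay above. *Insig1* fell by 1.36 on the log2 scale at 12 h (SE 0.43, edgeR adjusted p = 0.0217), a call that was kept in each of 16 alternative settings. At 24 h the log2 fold change was -0.49 ± 0.40 (edgeR adjusted p = 0.385), at 48 h -0.55 ± 0.41 (adjusted p = 0.368), at 72 h 0.36 ± 0.38 (adjusted p = 0.548) and at 96 h 1.01 ± 0.36 (adjusted p = 0.201). Whether its change differed from that of the enzymes was not tested.

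Of the other enzymes of the pathway at 24 h, 9 of 15 were called higher, with *Msmo1* (log2 fold change 2.06), *Mvd* (1.87), *Nsdhl* (1.65), *Hsd17b7* (1.06) and *Pmvk* (1.05) at the top, and *Tm7sf2*, a sterol reductase, was called lower (-0.99). At 24 h 13.9% of all genes were called higher and 11.7% lower. At 12 h, 1 was called higher (*Hsd17b7*, 0.85), against 16.7% of all genes, and 6 lower (14.3%), among them *Sc5d* (-1.58), *Fdft1* (-1.45) and *Acat2* (-1.45). Counts higher and lower were 5 and 1 at 48 h (9.89% of all genes higher and 6.52% lower) and 9 and 0 at 72 h (11.0% and 5.77%). They were 5 and 0 at 96 h (0.332% and 0.130%), where *Msmo1* (1.78), *Nsdhl* (1.72) and *Pmvk* (1.61) had the largest changes. The median log2 fold change over the 15 was 0.87 at 24 h, against 1.74 over the 7 genes described here.

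Of 6 genes that encode SREBPs or act in their retention and processing (*Srebf1*, *Srebf2*, *Scap*, *Insig2*, *Mbtps1* and *Mbtps2*), none was called higher at any time, and *Scap* was called lower at 24 h (log2 fold change -0.83, edgeR adjusted p = 0.00608), 48 h (-0.63) and 72 h (-0.75). *Mbtps1*, the first protease that cleaves SREBP, was called lower at 24 h (-0.68). *Srebf2* had a log2 fold change of 0.48 at 24 h (edgeR adjusted p = 0.029), under the 1.5-fold limit. Of 15 genes of sterol uptake, transport and efflux, 6 were called lower at 24 h (11.7% of all genes) and none higher, and *Abcg8* (-2.36) and *Abcg5* (-1.71), which together export sterols into bile, had the largest decreases. At 72 h 4 were called higher, *Soat1* (1.73), *Abcg1* (1.43), *Tmem97* (0.85) and *Npc2* (0.65), and 2 lower (11.0% and 5.77% of all genes). At 96 h *Tmem97*, whose product binds the lysosomal sterol transporter NPC1, was the 1 called higher (0.98, against 0.332% of all genes).

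Fatty acid synthesis genes, which SREBP-1c controls together with insulin signals, were lower at 24 h and higher at 96 h in their medians (log2 fold changes -0.94 and 1.18). Of 11 tested, 4 were called lower at 24 h, among them *Scd1* (log2 fold change -2.67) and *Thrsp* (-1.72), and none was called higher at 24, 48, 72 or 96 h (1 higher and 3 lower at 12 h). Of all genes, 11.7% were called lower at 24 h, and 16.7% higher and 14.3% lower at 12 h. At 96 h 11 of 11 had a log2 fold change above 0 and 10 an unadjusted p under 0.05, as did 2140 of 13855 genes. Their median of 1.18 compares with 1.33 over the 7 genes and 0.92 over the other 15 enzymes. Among 10 fasting-response genes at 24 h, *Pdk4* was called higher (4.45) and *G6pc* (-3.17), *Pck1* (-1.83) and *Ppargc1a* (-1.15) lower. Of 17 clock genes at 24 h, 1 was called higher and 7 lower (11.7% of all genes lower), with *Dbp* (-3.13) and *Nr1d1* (-2.57) lowest. The part of feeding and of time of day in the changes of the 7 genes was not tested.

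Marker genes of other cell types also moved with time. At 24 h 13.9% of all genes were called higher and 11.7% lower, and at 72 h 11.0% higher. At 24 h, 4 of 5 tested neutrophil markers were called higher, and their sum was 11.2 CPM in the control and 28.2 CPM in the LKO pool. Macrophage markers at 24 h were called higher in 3 of 8 (*Gpnmb* 3.55, *Cd68* 2.01 and *Ccr2* 1.94 on the log2 scale) and lower in 3 (*Adgre1* -1.30, *Clec4f* -1.28 and *Csf1r* -1.08). Endothelial markers were called higher in 1 of 5 (*Lyve1* 1.12) and lower in 2 (*Stab2* -1.51 and *Kdr* -0.75), stellate and fibroblast markers higher in 1 of 6 and lower in 2, bile duct markers higher in 1 of 5, and T and B cell markers in 0 of 5. At 72 h, 6 of 6 stellate and fibroblast markers and 4 of 8 macrophage markers were called higher. The stellate sum was then 718 CPM in control and 361 CPM in LKO, against 41.2 to 76.9 CPM in the 8 mice at 0 h. Hepatocyte markers summed to 112953 and 89453 CPM at 24 h, within the 51338 to 117379 CPM of these mice, but 4 of the 8 were called at 24 h, *Cps1* (-1.36) and *Hnf4a* (-0.67) lower and *Fgb* (0.87) and *Apoa1* (0.77) higher. The part of cell composition in the changes was not tested.

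**Figure D2:**
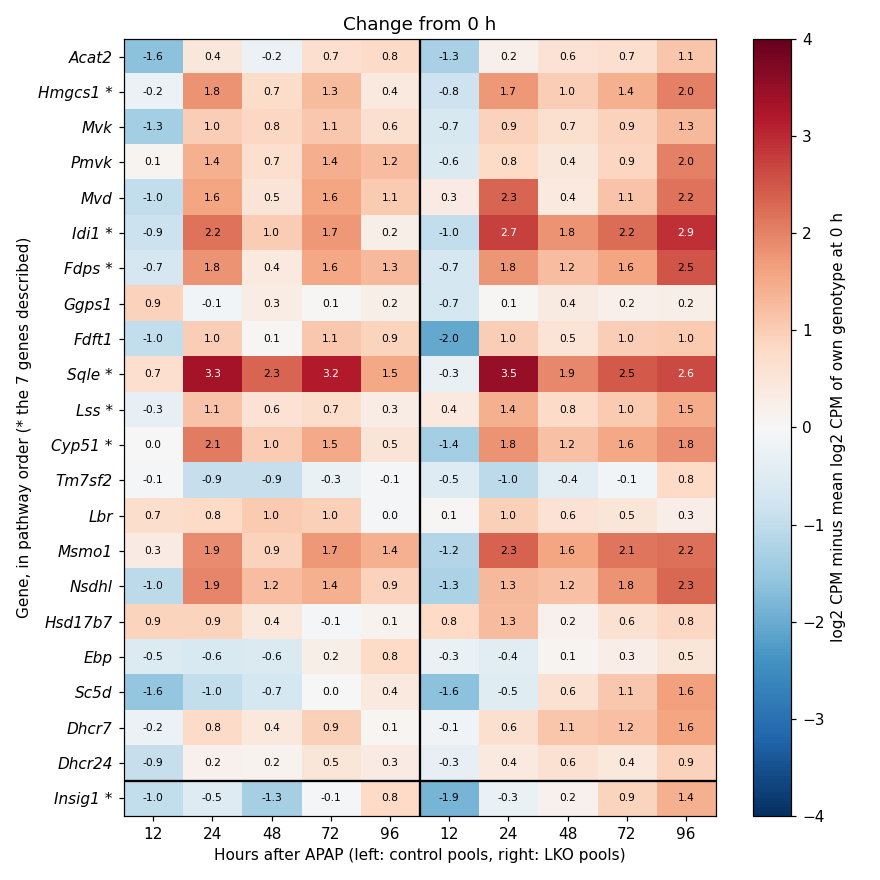
Log2 CPM of each pool minus the mean log2 CPM of the 4 mice of its genotype at 0 h, by gene (rows, roughly in the order of the pathway, with *Insig1* at the foot) and hours after APAP (columns, control on the left and LKO on the right). At 24 h the 6 starred enzymes were above 0 h for either genotype, and at 96 h the LKO column was higher than the control column for each of the 7 starred genes.

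At 96 h the genotypes parted. Each of the 7 genes was at least 1.5-fold higher in the LKO pool than in the control pool, against 14.0% of 12490 genes, and 0 were 1.5-fold lower (11.1%). The ratio of LKO to control was 6.13 for *Idi1* (95% interval 5.23 to 7.21), 3.77 for *Hmgcs1* (3.55 to 4.01), 2.22 for *Cyp51* (2.08 to 2.38) and 2.16 for *Fdps* (2.06 to 2.27). It was 2.02 for *Sqle* (1.76 to 2.33), 1.97 for *Lss* (1.76 to 2.20) and 1.60 for *Insig1* (1.54 to 1.65). These intervals cover counting error only and not the spread between mice, so a single pair of pools gives no test. The LKO pool at 96 h was at least 2-fold above its own 0 h mean for 7 of 7 genes (3.08% of all genes), and the control pool for 2 of 7, *Sqle* and *Fdps* (5.23%). Of the other 15 enzymes 9 were at least 1.5-fold higher and none lower in LKO at 96 h, among them *Dhcr7* (37.6 CPM in control and 98.1 CPM in LKO), *Sc5d* (195 and 473 CPM) and *Nsdhl* (30.3 and 72.2 CPM).

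Other lists were compared between the same 2 pools, where 14.0% of all genes were 1.5-fold higher in LKO and 11.1% lower. Of 11 fatty acid synthesis genes, 9 were at least 1.5-fold higher and 1 lower in LKO at 96 h. *Fasn* was at 356 CPM in control and 1278 CPM in LKO. Clock genes were higher in 4 of 17 and lower in 6, fasting-response genes higher in 3 of 10 and lower in 1, SREBP processing genes higher in 3 of 6, and sterol transport genes higher in 1 of 15 and lower in 1. Macrophage markers were at least 1.5-fold lower in LKO in 6 of 7 (summed, 404 CPM in control and 172 CPM in LKO), neutrophil markers in 2 of 2 (6.09 and 1.64 CPM) and T and B cell markers in 2 of 3 (5.95 and 3.67 CPM). These sums take in markers that the filter left out of the counts (8, 5 and 5 genes), and the neutrophil and T and B cell sums are low. Hepatocyte markers were lower in 2 of 8 and summed to 108069 and 94907 CPM. The part of these in the 96 h ratios was not tested.

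**Figure D3:**
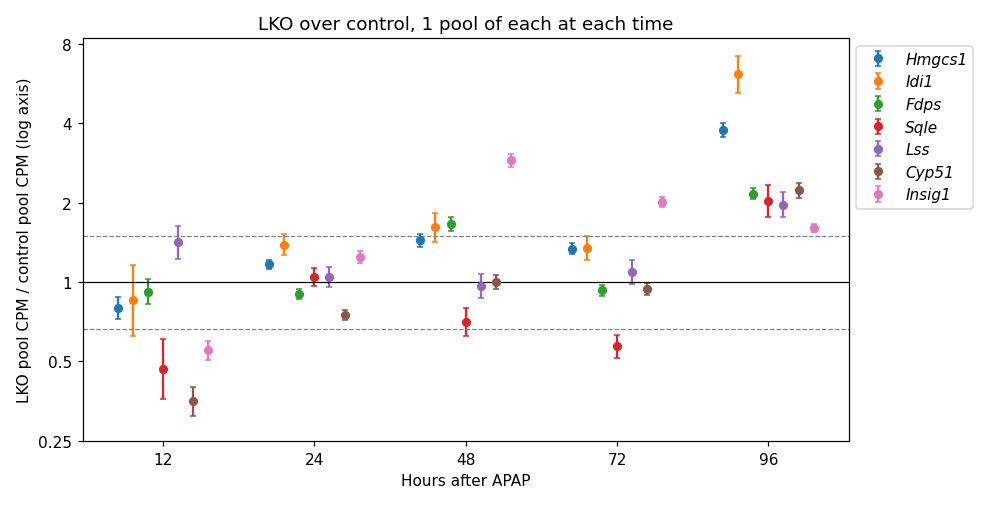
Ratio of CPM in the LKO pool to the control pool (log axis) at 12, 24, 48, 72 and 96 h, with 95% intervals for counting error and dashed lines at 1.5-fold. The 7 genes lay on both sides of 1 at 12, 24, 48 and 72 h and from 1.60 to 6.13 at 96 h.

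At earlier times the ratios were mixed. At 12 h *Cyp51* (ratio 0.354, 95% counting interval 0.311 to 0.401), *Sqle* (0.470, 0.359 to 0.610) and *Insig1* (0.553, 0.509 to 0.601) were at least 1.5-fold lower in LKO, as were 21.2% of all genes, and 0 of 7 were higher (18.9%). At 24 h, 0 of 7 passed 1.5-fold in either direction, against 8.01% of genes higher and 9.15% lower. At 48 h *Insig1* (2.89), *Fdps* (1.66) and *Idi1* (1.61) were higher in LKO (17.2% of genes) and 0 lower (17.1%). At 72 h *Insig1* (2.01) was higher (15.2%) and *Sqle* (0.570) lower (13.3%). *Insig1* was thus the gene with the highest ratio at 48 and 72 h and the one with the lowest at 96 h.

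A genotype difference shared by 12, 24, 48, 72 and 96 h was not called for any of the 7 genes, against 0.579% of 12782 genes. This test compared 5 LKO with 5 control pools with the time point as a block, by edgeR. *Idi1* was higher in LKO in 4 of 5 pairs of pools (log2 fold change 0.77 ± 0.33, edgeR adjusted p = 0.256), *Hmgcs1* in 4 of 5 (0.52 ± 0.27, adjusted p = 0.336) and *Insig1* in 4 of 5 (0.53 ± 0.29, adjusted p = 0.358). Leaving out 96 h lowered the value of *Idi1* to 0.35 and that of *Hmgcs1* to 0.20, and leaving out 48 h lowered that of *Insig1* to 0.29. For *Sqle*, *Lss*, *Cyp51* and *Fdps* the values lay between -0.28 and 0.30. Only *Idi1* of the 7 had an unadjusted p under 0.05 (0.0393 in the edgeR fit across all genes), as did 2284 of all genes tested, and DESeq2 called 0 of the 7. In the same test *Acacb* (1.34) and *Fasn* (1.28) were called higher in LKO among 11 fatty acid synthesis genes, and 0 of the other 15 cholesterol enzymes were called.

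Before APAP, LKO and control livers did not separate in these genes. By edgeR with 4 mice per group 0 of 7 were called, as were 0 of 12426 genes (0%), and 352 genes had an unadjusted p under 0.05, none of them among the 7. Log2 fold changes ran from -0.20 ± 0.20 (*Lss*) to 0.29 ± 0.20 (*Hmgcs1*), each with an edgeR adjusted p of 0.999. The groups overlapped in each of the 7 genes, while 1.75% of genes did not overlap. The spread between mice was wide, with a coefficient of variation from 12.8% (*Fdps*) to 60.9% (*Sqle*) in control and from 23.7% (*Hmgcs1*) to 40.9% (*Sqle*) in LKO. Without control replicate 3 or LKO replicate 2 the log2 fold changes of *Sqle*, *Idi1*, *Cyp51* and *Fdps* turned from below to above 0.

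**Figure D4:**
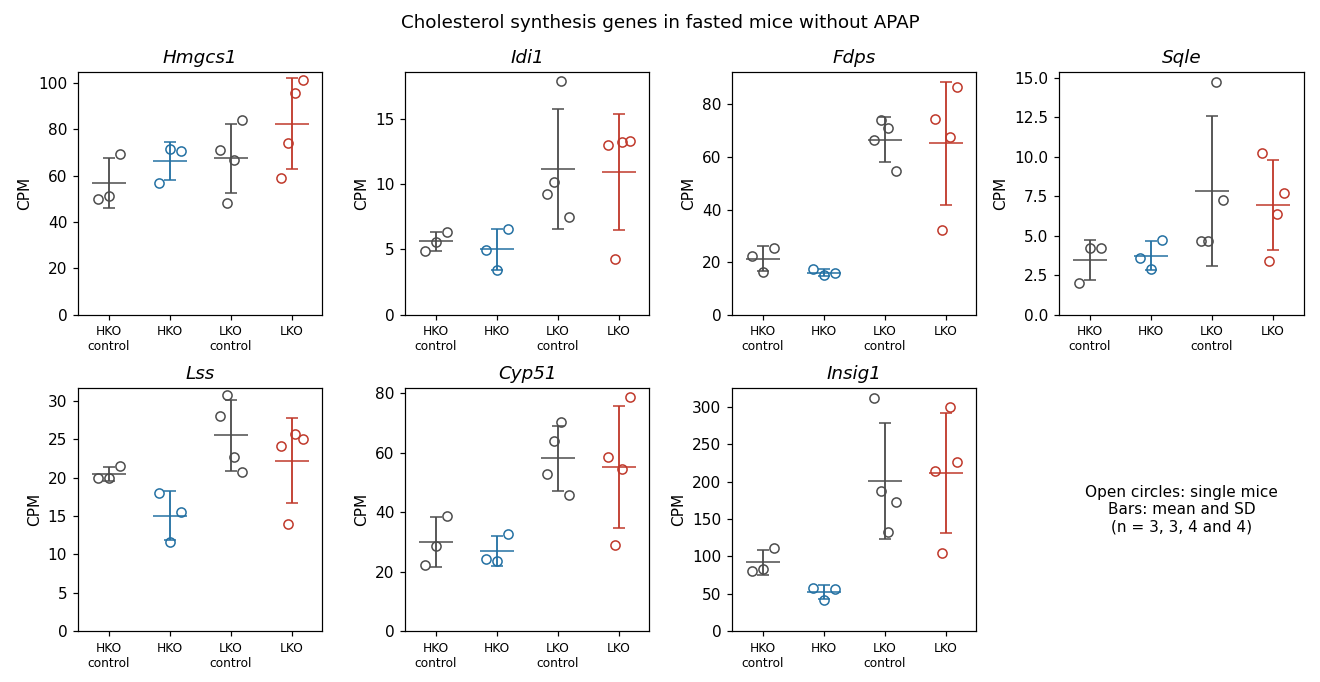
CPM of the 7 genes in single fasted mice without APAP (open circles) in the AAV8-TBG-Null control, HKO, LKO control and LKO groups, with means and SD (n = 3, 3, 4 and 4). *Insig1* and *Lss* do not overlap between HKO and its control, and LKO and its control overlap in all 7 panels.

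In the HKO cohort, *Insig1* was lower in HKO livers without passing the threshold. It was at 80.7, 83.2 and 111 CPM in controls and at 58.0, 41.4 and 56.7 CPM in HKO, that is 91.7 ± 17.0 and 52.0 ± 9.19 CPM (SD, n = 3), and the groups did not overlap. The log2 fold change was -0.82 ± 0.16 (edgeR adjusted p = 0.0564). It was called in 4 of 14 alternatives, among them DESeq2 (adjusted p = 0.000409), no filter on low counts (edgeR adjusted p = 0.0129) and leaving out HKO replicate 1 (edgeR adjusted p = 0.0346), and it was not called in a fit of all 14 mice at 0 h (edgeR adjusted p = 0.484), the lowest and highest adjusted p of these alternatives being those of DESeq2 and this fit. *Lss* was at 19.9, 20.0 and 21.5 CPM in controls and at 18.0, 11.6 and 15.6 CPM in HKO, also without overlap (log2 fold change -0.44 ± 0.16, edgeR adjusted p = 0.297). Groups did not overlap in 18.0% of the 12397 genes tested, so 2 of 7 is to be read against that share.

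*Fdps* was at 22.3, 16.1 and 25.6 CPM in controls and at 17.4, 15.0 and 15.8 CPM in HKO, with overlap (log2 fold change -0.41 ± 0.17, edgeR adjusted p = 0.364). *Hmgcs1* had a log2 fold change of 0.22 ± 0.15 (edgeR adjusted p = 0.615), and *Idi1*, *Cyp51* and *Sqle* lay between -0.16 and 0.11. Thus 0 of 7 genes were called, against 0.960% of all genes, and 3 (*Insig1*, *Lss* and *Fdps*) had an unadjusted p under 0.05, as did 1598 of 12397 genes. None of the other 15 enzymes was called either (median log2 fold change -0.23). *Insig2*, the second INSIG gene, had a log2 fold change of 0.68 ± 0.15 (edgeR adjusted p = 0.0727), opposite in sign to *Insig1*. *Thrsp*, a lipogenic regulator, was called lower (-2.80, edgeR adjusted p = 0.000374).

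Clock genes differed between the same HKO and control mice. Of 17 tested, *Arntl* was called higher (log2 fold change 2.24) and *Dbp* (-2.70), *Per3* (-2.40), *Per2* (-1.66), *Tef* (-1.18) and *Nr1d2* (-0.72) lower, against 0.960% of all genes in either direction. When the HKO effect was subtracted from that of LKO, 0 of the 17 were called. Neutrophil markers were too low to be tested, and none of the markers of hepatocytes, macrophages, stellate, endothelial, bile duct or T and B cells was called. The part of these differences in the values of *Insig1* was not tested.

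The genotype effect did not differ detectably between LKO and HKO at 0 h. For *Insig1* the LKO effect exceeded the HKO effect by 0.89 ± 0.43 on the log2 scale (edgeR adjusted p = 1), and 0 of the 7 genes and 0 of 12945 genes (0%) were called, with 579 genes at an unadjusted p under 0.05. Levels in the cohorts stood side by side as follows. *Fdps* was at 15.0 to 25.6 CPM in the 6 mice of the HKO cohort and at 32.1 to 86.6 CPM in the 8 mice of the LKO cohort, without overlap, while the other 6 genes overlapped, as *Hmgcs1* did (50.1 to 71.4 and 48.3 to 101 CPM). For *Insig1*, *Cyp51* and *Idi1* the overlap came through LKO replicate 2 alone (105, 29.1 and 4.25 CPM). The cohorts did not overlap in 9.12% of 12945 genes. Among controls, which carry no Cre in either cohort, *Fdps* was at 16.1 to 25.6 CPM and 54.8 to 74.1 CPM. *Insig1* (80.7 to 111 and 132 to 312 CPM) and *Cyp51* (22.3 to 38.8 and 45.8 to 70.2 CPM) did not overlap among controls either. Nor did *Idi1* (4.91 to 6.32 and 7.45 to 17.8 CPM) and *Sqle* (2.02 to 4.23 and 4.65 to 14.7 CPM). *Hmgcs1* and *Lss* overlapped, and the share of all genes for controls alone was not counted. The virus injection and other differences between the cohorts cannot be told apart, so levels were not tested between cohorts.

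Among other genes, 4 of the 8 given here as most like the mean of the 7 over 24 libraries encode enzymes of the same pathway. By Pearson's r of log2 CPM they were *Nsdhl* (r = 0.968, Spearman's rho = 0.959), *Msmo1* (0.936, 0.921), *Ptgr1* (0.914, 0.901), *Mvk* (0.909, 0.909), *Mvd* (0.894, 0.871), *Tuba1b* (0.881, 0.925), *Asah1* (0.879, 0.867) and *Rdh11* (0.878, 0.840). *Nsdhl* and *Msmo1* remove methyl groups from sterols after CYP51, and *Mvk* and *Mvd* act on mevalonate between HMGCS1 and IDI1. *Ptgr1* (a prostaglandin reductase), *Tuba1b* (a tubulin), *Asah1* (acid ceramidase) and *Rdh11* (a retinol dehydrogenase) are not enzymes of the pathway. Of the 7 genes themselves, *Idi1* was closest to the mean (r = 0.977) and *Insig1* farthest (r = 0.732) over 24 libraries. Each of the 7 is part of that mean, which raises its own r, so these values do not compare with those of other genes. In the 14 mice at 0 h alone *Insig1* was at r = 0.903 and *Hmgcs1* farthest at 0.469. Of the 10 genes most like the mean, 6 were shared when Spearman's rho was used, 5 in the 18 libraries of the LKO cohort and 1 in the 14 mice at 0 h, so the list depends on the libraries taken. The 24 libraries share cohorts and time points, so these values are descriptions with no p.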

How the data were processed

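Whole-liver RNA-seq of 24 libraries (14 single mice at 0 h and 10 pools of 3 mice) was used, grouped by their labels. Trimmomatic was used for trimming and STAR for alignment (mm10), and the authors deposited the gene counts of STAR without normalization. The annotation version is not given in the sources used here. Counts that disregard strand were taken, and rows naming no gene (18.7% to 39.9% of a library) were left out. Reads on genes ranged from 12665686 to 19499897, which bounds the precision of low counts.

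Tests used edgeR 4.0.16 in R 4.3.3 (filterByExpr, TMM scaling, quasi-likelihood F-test, 2-sided), with p-values adjusted by Benjamini-Hochberg over each fit. The edgeR and DESeq2 fits were tested on simulated counts with known changes, and the other steps were not part of that test. CPM was scaled by TMM over all libraries, and log2 CPM used a prior count of 2. Ratios of pools carry exact binomial intervals. Alternatives were DESeq2 1.42.0, other scalings and filters, a replicate block and leaving out each mouse at 0 h in turn. In the comparison of LKO with control pools, each time point was left out in turn, with both of its pools. No pool was left out by itself, so the dependence of the calls against 0 h on a single pool was not tested. P-values measure the spread between these mice or pools, which the labels describe as separate animals only at 0 h. All 7 genes were described, and of the other lists the called genes with the largest changes were named. The members and lists were chosen with earlier results of these data known. Of the 10 genes most like the mean, 8 are given, and the others are not reported here.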

Additional observations from a re-analysis of the deposited data

Results flagged for a closer look

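In LKO mice at 0 h, *Idi1* was at 4.247 CPM in replicate 2 and at 13.0 to 13.2 CPM in the other 3, a gap of 0.974 of the range of the group, above the Dixon limit for 4 samples. *Lss* was at 13.99 CPM in the same mouse and at 24.1 to 25.7 CPM in the others (0.864 of the range). Of 14 sets of 4 values tested (7 genes in control and in LKO mice), 2 were singled out in this way, and chance does so in about 1 in 20. Both come from 1 mouse, and *Idi1* and *Lss* vary together (r = 0.774 in the 14 mice at 0 h). They are thus not separate draws to set against that rate. The same mouse was lowest of its group in 6 of the 7 genes, and its hepatocyte markers summed to 91103 CPM, within the 51338 to 117379 CPM of the cohort at 0 h.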

How the results depend on the processing

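The numbers of genes called at 24 and 72 h (6 and 6), and the 0 called for LKO against control at 0 h, over 12 to 96 h and for the difference between LKO and HKO effects, held in each alternative. For HKO against control the count went from 0 to 1 (*Insig1*) with no filter beyond 1 count and with DESeq2, and from 0 to 1 when mice were left out in turn (1 without HKO replicate 1). At 48 h it went from 3 to 6 with library size alone, to 5 with at least 10 counts in every library and to 5 with DESeq2, and leaving out mice gave 1 to 4. At 96 h it went from 3 to 6 with DESeq2, to 4 with no filter beyond 1 count and to 2 with library size alone, without a genotype term or with only 0 h and 96 h in the fit, and leaving out mice gave 1 to 3. At 12 h leaving out mice gave 1 to 2 (2, *Insig1* and *Fdps*, without LKO replicate 2). With library size alone, chosen after seeing the data, 1 gene was at least 1.5-fold higher in the LKO pool at 12 h and 1 lower at 48 h, against 0 and 0, and the number higher at 48 h fell from 3 to 2 (*Idi1* at 1.46). The causes were not tested.

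Replicate numbers did not pair the mice (correlations of deviations -0.0371 to 0.200 for HKO and -0.367 to 0.223 for LKO). With a replicate block the count for HKO was 1 (*Insig1*, edgeR adjusted p = 0.0127), and for LKO and the difference of effects 0.

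Directions changed as follows, all on the log2 scale and none called. For LKO against control at 0 h with library size alone, *Idi1* was 0.10, *Cyp51* 0.047 and *Fdps* 0.094. When mice were left out, values for LKO at 0 h ran from -0.42 to 0.34 for *Sqle*, -0.14 to 0.36 for *Insig1*, -0.20 to 0.30 for *Idi1*, -0.29 to 0.13 for *Cyp51* and -0.19 to 0.19 for *Fdps*. For HKO they ran from -0.17 to 0.27 for *Sqle*, -0.41 to 0.044 for *Idi1* and -0.33 to 0.076 for *Cyp51*. At 12 h *Lss* ran from -0.056 to 0.12, and over 12 to 96 h, leaving out time points, *Cyp51* ran from -0.50 to 0.14. Depth was not limiting for the 7 genes, and 1 pool per genotype and time leaves the spread between pools unmeasured.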
